A study of Mus musculus with 4 samples.

Results

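The target and feedback genes of Wnt/beta-catenin signalling were taken as 10 symbols, Axin2, Lef1, Tcf7, Tcf7l1, Tcf7l2, Nkd1, Nkd2, Znrf3, Rnf43 and Sp5, and every transcript row with one of these symbols was kept. They hold 41 of the 40739 transcript rows and 10 of the 25177 gene symbols in the authors' deposited table. The RNA was nuclear RNA of NIH-3T3, a fibroblast line long established from mouse embryos. All cells of both groups carried H2B-mCherry, the rtTA3G transactivator and a CDX2 transgene under the doxycycline-responsive TRE3G promoter, and were kept in puromycin. In 2 libraries the cells had received doxycycline for 6 h, and in 2 libraries solvent alone. The dose is 500 ng/ml in the extraction protocol and the same figure per microlitre in the treatment protocol, and each sample began with 500000 cells. No label says whether the line is a single clone or whether the replicates were separate cultures, and the p-values below may therefore reflect only technical variation. The comparison asks which nuclear transcripts differ after 6 h of doxycycline in these cells. No cells without the CDX2 transgene are among the 4 libraries, so effects of CDX2 and of doxycycline itself cannot be told apart.

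In Wnt/beta-catenin signalling a Wnt ligand bound to Frizzled and LRP receptors stops the destruction complex from degrading beta-catenin. The beta-catenin that accumulates joins DNA-bound TCF/LEF factors (Lef1, Tcf7, Tcf7l1 and Tcf7l2) and turns their target genes on. Several targets act back on the pathway: Axin2 rebuilds the destruction complex, Nkd1 and Nkd2 bind Dishevelled, Znrf3 and Rnf43 are ubiquitin ligases that remove Frizzled from the cell surface, and Sp5 is a zinc finger repressor of other Wnt targets. CDX2 is a homeobox factor of the intestine, trophectoderm and posterior axis, where Wnt signalling is also active.

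Upstream sequences are shown for the 3 members with the largest rises and for Sp5, a member without reads, because TCF/LEF and CDX factors are known to bind short sequence cores. RefSeq promoter windows of GRCm38.p6, the build of the files, matched 9 of the 10 members by symbol, all but Znrf3, with 15 windows. The 250 bases before each start were searched on both strands for CTTTGA and CTTTGT (cores bound by TCF/LEF) and for CATAAA and AATAAA (cores bound by CDX proteins), and matches are in capitals below, written 5′ to 3′ on the gene's strand, which is the plus strand for all 5. The windows are chr11:108920099-108920348 (Axin2), chr3:131110047-131110296 (Lef1), chr19:55741560-55741809 (Tcf7l2, outermost start), chr19:55895071-55895320 (Tcf7l2, inner start) and chr2:70474673-70474922 (Sp5).
Axin2: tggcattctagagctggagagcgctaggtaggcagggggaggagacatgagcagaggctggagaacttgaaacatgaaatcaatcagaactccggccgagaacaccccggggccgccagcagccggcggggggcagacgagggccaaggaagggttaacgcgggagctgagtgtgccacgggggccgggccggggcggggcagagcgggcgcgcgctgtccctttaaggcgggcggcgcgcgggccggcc
Lef1: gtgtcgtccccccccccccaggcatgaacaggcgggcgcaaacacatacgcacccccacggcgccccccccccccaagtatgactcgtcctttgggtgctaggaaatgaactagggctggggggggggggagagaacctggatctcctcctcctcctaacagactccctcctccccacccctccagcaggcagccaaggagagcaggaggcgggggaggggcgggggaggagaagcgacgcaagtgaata
Tcf7l2 outermost start: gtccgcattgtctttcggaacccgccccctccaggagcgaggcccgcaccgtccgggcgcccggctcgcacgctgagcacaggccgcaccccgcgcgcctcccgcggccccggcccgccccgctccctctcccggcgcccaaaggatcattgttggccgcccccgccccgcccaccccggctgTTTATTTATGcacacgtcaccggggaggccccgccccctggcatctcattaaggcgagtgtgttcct
Tcf7l2 inner start: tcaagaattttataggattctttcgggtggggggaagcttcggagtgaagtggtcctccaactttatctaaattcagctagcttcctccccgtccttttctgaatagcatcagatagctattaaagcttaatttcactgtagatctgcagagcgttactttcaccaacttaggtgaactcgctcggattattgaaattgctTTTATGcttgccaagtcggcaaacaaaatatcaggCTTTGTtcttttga
Sp5: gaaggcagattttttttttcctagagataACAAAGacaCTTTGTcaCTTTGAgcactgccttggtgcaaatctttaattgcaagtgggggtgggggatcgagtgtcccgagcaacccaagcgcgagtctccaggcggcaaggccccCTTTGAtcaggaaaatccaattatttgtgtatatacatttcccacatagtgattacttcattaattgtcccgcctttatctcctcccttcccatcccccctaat
The windows of Axin2 and Lef1 shown here held 0 matches to either pair of cores. At the outermost start of Tcf7l2 an AATAAA and a CATAAA core, both on the opposite strand and overlapping each other by 2 bases, began 67 and 63 bases before the start. The inner start of Tcf7l2 had a CATAAA core 49 bases and a CTTTGT core 14 bases upstream. The window of Tcf7l1, not shown, held 1 TCF/LEF core, and 3 were found before an inner Lef1 start that no transcript row uses. Sp5 had 4 TCF/LEF cores, 2 of each kind, from 221 to 104 bases upstream. Of 32851 windows of the same length over all genes, 27.6% held a TCF/LEF core and 25.5% a CDX core. A match is a description of these letters and says nothing of binding. In base composition, the windows at the outermost starts of Axin2, Lef1, Tcf7l1 and Tcf7l2 had 69.2%, 66.4%, 73.6% and 72.8% G and C, against 46.0% for Sp5 and a median of 52.4% over all windows. The outermost window of Tcf7, which was not called, had 76.0% and its inner window 64.4%. The only Nkd1 window, which lies before an inner start, and the Nkd2 window had 58.4% each, and those of Rnf43 44.4% and 45.2%. The Tcf7l1 window and the inner Tcf7 window overlap an untranslated region annotated in GENCODE.

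For each transcript, the authors' deposited table lists a log2 fold change and a mean log2 CPM (a count scaled to library size); values per library were not analysed here, so overlap between single libraries of the groups could not be examined. Where a gene had several transcripts, the most abundant was used, and 12355 genes with a geometric mean of at least 10 counts per library (0.230 CPM) were tested. A gene was called at an adjusted p under 0.05 from the authors' limma test, and ± is the standard error, taken as the fold change divided by t. In the authors' deposited table Cdx2 itself rose 124-fold (log2 fold change 6.95 ± 0.091), in the direction of the labels. Transcripts without reads imply an effective library of about 45700000 counts if 0.5 count was added per library before the log, the value taken here. The values fit 1 count added equally well, in which case each measured count and the count floor given here would be 2 times as large and the effective library about 91400000, while CPM levels and fold changes would be the same. All 10 fibroblast markers examined were tested, at 5.64 to 2086 CPM, and their summed level was 6884 CPM with solvent and 5746 CPM with doxycycline. Of these 10, 6 were called lower and 1 higher, beside 13.4% and 11.3% of all tested genes. Summed levels of 7 epithelial markers were 1.51 and 0.657 CPM, with Krt18, Cldn4 and Esrp1 without reads. Most of that sum was Cdh1 (1.43 and 0.464 CPM), while Krt19, below the count floor at 5.5 to 62.5 counts over the 4 libraries together, was higher with doxycycline (limma, adjusted p 2.07e-07). Those of 5 immune markers, with Cd3e without reads, were 1.14 and 0.985 CPM, and those of 4 endothelial markers 4.62 and 3.95 CPM. The part of these marker changes in the results below was not tested.

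Of the 10 members, 6 were tested, 2 (Rnf43 and Nkd2) had reads below the count floor and 2 (Nkd1 and Sp5) had no reads. Among the 6 tested, 4 rose with doxycycline (Axin2, Tcf7l2, Lef1 and Tcf7l1), 1 fell (Znrf3) and 1 (Tcf7) was not called in the authors' deposited table. Over all genes tested, 11.3% were called higher and 13.4% lower, 24.7% in either direction. The median log2 fold change of the 6 was 0.50, beside -0.0011 over all genes tested. Without the count floor the same numbers of members were called, 4 higher and 1 lower, beside 5.95% and 7.13% of 25177 genes. Neither the count nor the median was tested as a property of the set, and the members were chosen with results of these data known.

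**Figure D1:**
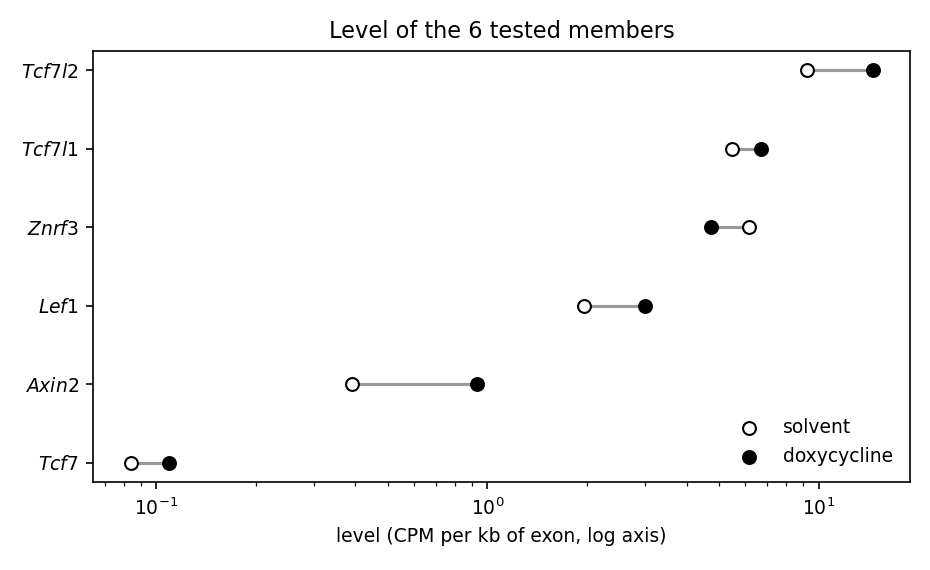
Level of the 6 tested members, in CPM per kilobase of exon on a log axis, computed from the mean level and fold change of the authors' deposited table; open circles are solvent and filled circles doxycycline. Tcf7l2 was the most abundant (9.20 and 14.6), Axin2 lay between 0.390 and 0.931, and Tcf7 was the least abundant (0.0838 and 0.109). Points are approximate group means without an error, since the table gives none for a level.

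The transcription factors of the pathway differed widely in abundance. Per kilobase of exon, computed from the authors' deposited table, Tcf7l2 stood at 9.20 CPM with solvent, Tcf7l1 at 5.48, Lef1 at 1.96 and Tcf7 at 0.0838. With doxycycline these levels were 14.6, 6.68, 2.99 and 0.109 CPM per kilobase, so the order among the 4 was the same. The table gives no error for a level, so neighbours in that order were not compared by a test. Tcf7l2 and Tcf7l1 made up most of the TCF/LEF RNA in these nuclei.

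Tcf7l2 (NM_001331148, chromosome 19, 55741810 to 55933655), which encodes TCF4, the main partner of beta-catenin in intestinal epithelium, rose from 38.6 to 61.0 CPM. Its log2 fold change in the authors' deposited table was 0.66 ± 0.069 (adjusted p 7.22e-20), or 1.58-fold with a 95% interval of 1.44-fold to 1.74-fold. It ranked 245 among 12355 tested genes in order of rise. Lef1 (NM_010703, chromosome 3, 131110297 to 131224357), a factor that is itself a known Wnt target, rose from 7.12 to 10.9 CPM. Its log2 fold change in the authors' deposited table was 0.61 ± 0.098 (adjusted p 1.43e-08), or 1.53-fold with an interval of 1.34-fold to 1.75-fold. The fold changes of Tcf7l2 and Lef1 differed by 0.050 on the log2 scale, with a 95% interval of -0.18 to 0.28, so a difference of that size could not be told from 0.

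Tcf7l1 (NM_001079822, chromosome 6, 72626371 to 72789045), the family member best known as a repressor of Wnt targets, rose less, from 15.6 to 19.1 CPM. In the authors' deposited table its log2 fold change was 0.29 ± 0.080 (adjusted p 0.00388), or 1.22-fold with an interval of 1.09-fold to 1.36-fold. The rise of Tcf7l1 was smaller than that of Tcf7l2 by 0.37 (95% interval 0.17 to 0.58) and smaller than that of Lef1 by 0.32 (0.076 to 0.57). Tcf7 (NM_009331, chromosome 11, 52252283 to 52282595), which encodes TCF1, a factor known from T cells, was near the count floor with a geometric mean of 10.7 counts per library. The authors' deposited table gives it a log2 fold change of 0.38 ± 0.35, which was not called (adjusted p 0.668), and its interval of -0.30 to 1.06 holds both no change and the rise of Tcf7l2.

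Among the feedback inhibitors, Axin2 rose and Znrf3 fell. Axin2 (NM_015732, chromosome 11, 108920349 to 108950781), the scaffold protein widely used as a readout of Wnt/beta-catenin activity, rose from 1.65 to 3.94 CPM. Its log2 fold change in the authors' deposited table was 1.26 ± 0.15 (adjusted p 1.76e-14), or 2.39-fold with a 95% interval of 1.94-fold to 2.94-fold. It ranked 35 among the 12355 tested genes in order of rise, at a geometric mean of 116 counts per library. Axin2 was the member with the largest rise: its fold change exceeded that of Tcf7l2 by 0.59 (0.26 to 0.92) and that of Lef1 by 0.64 (0.29 to 1.00). The 3 tested genes with the nearest fold changes were 1700003E16Rik (1.25 ± 0.37), Lif (1.27 ± 0.11), a cytokine, and Zfp300 (1.22 ± 0.36) in the authors' deposited table, listed only as a description of the size.

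Znrf3 (NM_001290501, chromosome 11, 5276329 to 5381740) fell from 44.4 to 34.0 CPM. In the authors' deposited table its log2 fold change was -0.39 ± 0.070 (adjusted p 9.06e-07), so the level with solvent was 1.31-fold that with doxycycline (95% interval 1.19-fold to 1.44-fold). Per kilobase of exon it stood at 6.18 CPM with solvent, above Tcf7l1, and at 4.73 with doxycycline, below Tcf7l1, an order that was not tested. The fold changes of Axin2 and Znrf3 lay 1.64 apart on the log2 scale (1.31 to 1.97). Its paralogue Rnf43 gave very few reads. With 0.5 count added per library, the mean level of Rnf43 in the authors' deposited table fits between 4 and 22 counts over the 4 libraries together, and its adjusted p was 0.570.

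**Figure D2:**
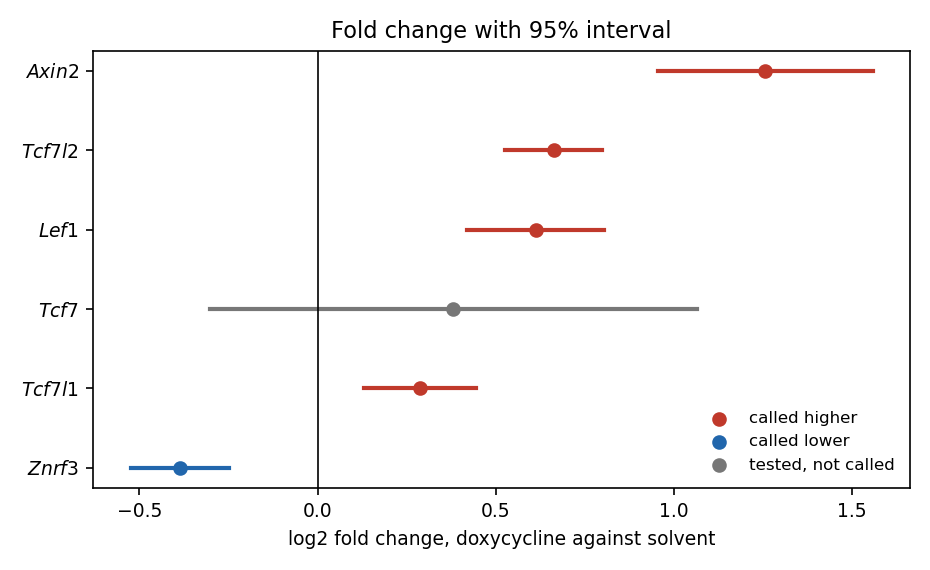
Log2 fold change, doxycycline against solvent, of the 6 tested members in the authors' deposited table, with 95% intervals; red and blue mark members called higher and lower, and grey a tested member not called. Axin2 (1.26) lies to the right of Tcf7l2 (0.66), Lef1 (0.61) and Tcf7l1 (0.29), and Znrf3 (-0.39) lies left of 0.

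The naked cuticle genes and Sp5 gave little or no signal. Nkd2 (NM_001347535, chromosome 13, 73818534 to 73847631) fits between 4 and 29.5 counts over the 4 libraries together, and its adjusted p of 0.146 in the authors' deposited table was not called (unadjusted p 0.0296). Nkd1 (NM_027280, chromosome 8, 88521344 to 88594887) and Sp5 (NM_022435, chromosome 2, 70474923 to 70477726) sat at the lowest level of the authors' deposited table, which corresponds to 0 reads in all 4 libraries. A count of 0 in a library of the size given above allows up to 3 counts, or 0.0656 CPM (0.0328 CPM if 1 count was added), for counting error only. No fold change is given for these 4 genes with few or no reads. Rnf43 and Nkd2 were not called, and with so few counts a difference may have been missed. For Nkd1 and Sp5, without reads in either group, no difference could be seen at this depth.

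**Figure D3:**
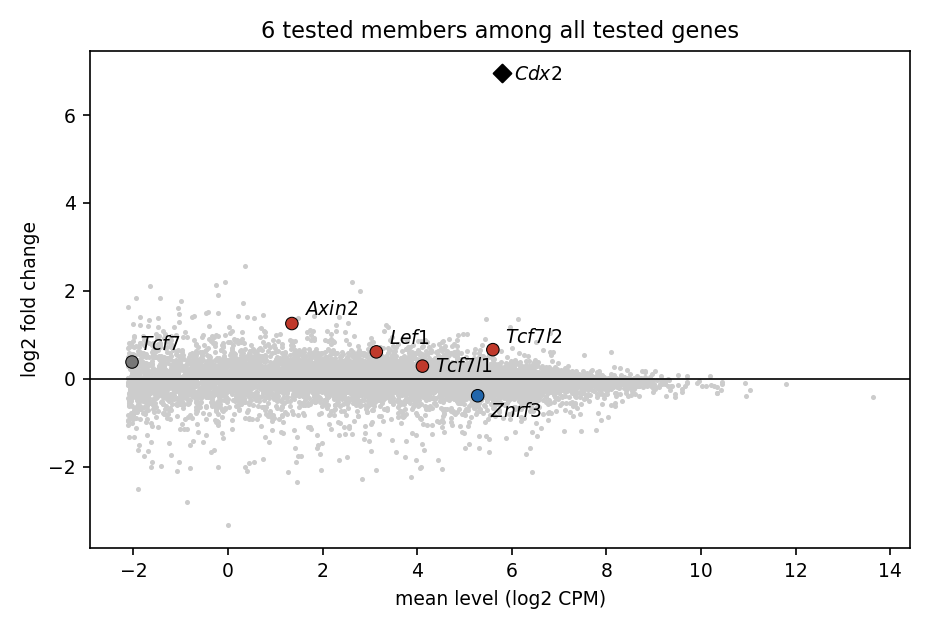
Log2 fold change against mean level (log2 CPM) for the 12355 tested genes of the authors' deposited table (grey dots), with the 6 tested members as large circles (red called higher, blue called lower, grey not called) and Cdx2 as a diamond. Cdx2 (6.95) stands above all other genes, and Axin2 (1.26) lies near the upper edge of the cloud at its level.

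Of the 15 pairs among the 6 tested members, 11 had a 95% interval of the difference in fold change that left out 0, with errors taken as independent and no adjustment over the pairs. The pairs that did not were those of Tcf7 with Lef1, Tcf7l1 and Tcf7l2, and Tcf7l2 with Lef1. At a mean log2 CPM of at least 2, the authors' errors follow level and fold almost entirely, rather than each gene's own replicates. Over the 19541 rows at that level, level and fold accounted for 99.2% of the variation in log standard error. The intervals may therefore be too narrow. Axin2 (1.35) and Tcf7 (-2.03) lie below that level, so this fit was not examined for them. The p-values correspond to 44446 degrees of freedom, so the spread was pooled over transcripts. The intervals of Axin2 and Tcf7 may therefore be too narrow as well. With all standard errors widened 2.08-fold, the robust SD of t over the tested genes, Axin2 and Tcf7l2 were still called, while Lef1 (adjusted p 0.0549), Tcf7l1 (0.554) and Znrf3 (0.118) were not, beside 1.54% of all tested genes called higher and 3.12% lower. Under those errors 5 of the 15 pair intervals left out 0, and the difference of Axin2 from Tcf7l2 ran from -0.091 to 1.28.

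Different transcript rows of a gene share most of their exons and reads, so they are not replicates. Tcf7l2 had 25 rows, 24 of them from the outermost start with exon lengths of 3980 to 4194 bases, and in the authors' deposited table all 24 had a log2 fold change of 0.66. For the inner start the single row (NM_001142924, 55895321 to 55933655, 3431 bases), 153511 bases downstream, stood at 0.62 ± 0.072, with 34.4 CPM as its mean level or 10.0 CPM per kilobase, against 11.6 CPM per kilobase for NM_001331148. The 3 rows of Lef1 ran from 0.60 to 0.66 in the authors' deposited table, the highest value belonging to NM_001276403, which starts 2494 bases further in (0.66 ± 0.12). The Znrf3 row with the outermost start (NM_001080924) fell by 0.37 ± 0.071 on the log2 scale in the authors' deposited table, close to the -0.39 of the row used. Tcf7l1 had 2 rows at 0.29 each, and Tcf7 2 rows at 0.38 and 0.42 in the authors' deposited table. Rows of the same member were either all called or all not called, so the rows add nothing to the count of genes.

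**Figure D4:**
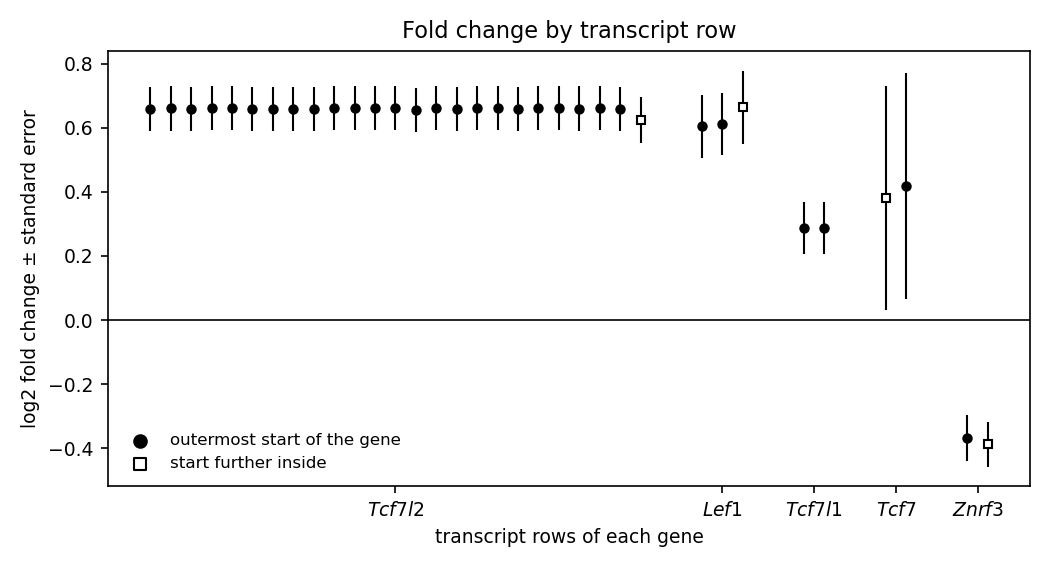
Log2 fold change ± standard error of each transcript row of Tcf7l2, Lef1, Tcf7l1, Tcf7 and Znrf3 in the authors' deposited table; filled circles start at the gene's outermost start and open squares further inside. Rows of 1 gene lie together (25 rows of Tcf7l2 between 0.62 and 0.66), and the Znrf3 rows are below 0.

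By GENCODE M21, exons of Axin2, Lef1 and Tcf7l1 overlap those of antisense genes (Gm11670, Gm43352 and Gm15401), and the other 7 members overlap no other gene's exons. The library kit keeps strand, but no source states whether counting used it, and reads of the antisense genes could be part of the values of these 3 members. Gm15401 was not called in the authors' deposited table (log2 fold change 0.36, limma adjusted p 0.445, in its more abundant row), and the other antisense genes were not analysed here.

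The rest of the pathway was described with 5 lists; Dact1, Kremen1, Lgr5, Notum and Dkk1 each stand in a pair of them. Of 30 genes of the destruction complex and signal transduction, all tested, 5 rose, 1 fell and 24 were not called in the authors' deposited table, 20.0% called beside 24.7% of all genes, with a median log2 fold change of 0.061. That share is near the background. Dact1, a Dishevelled-binding protein, rose (1.08 ± 0.18) and its relative Dact3 fell (-0.48 ± 0.087) in the authors' deposited table. Of the casein kinase genes, Csnk1e (0.32 ± 0.070), Csnk1g1 (0.23 ± 0.070) and Csnk1g3 (0.19 ± 0.071) rose in the authors' deposited table. Csnk1a1 (-0.061 ± 0.064), Csnk1d (-0.072 ± 0.063) and Csnk1g2 (-0.026 ± 0.066) were not called. With widened errors 0 rises and 0 falls were called in this list. Beta-catenin itself, Ctnnb1, stood at -0.090 ± 0.060 (adjusted p 0.438), Apc at 0.12 ± 0.066 (0.281), Axin1, the constitutive relative of Axin2, at 0.0063 ± 0.068 (0.951) and Gsk3b at 0.079 ± 0.065 (0.579), none of them called in the authors' deposited table. RNA levels do not show the amount or location of beta-catenin protein.

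Nuclear cofactors that work with TCF/LEF factors moved both ways. Of 25 listed, 23 were tested, and 5 rose, 4 fell and 14 were not called in the authors' deposited table, with a median of -0.044, or 39.1% called beside 24.7% of all tested genes. With widened errors 0 rises and 1 fall were called. Pygo1 and Sox17 had no reads. Bcl9l, a coactivator that binds beta-catenin, fell (-0.49 ± 0.064) in the authors' deposited table. The corepressor genes Tle2 (0.60 ± 0.13) and Tle1 (0.31 ± 0.071) and Hbp1 (0.29 ± 0.070), a repressor of TCF-dependent transcription, rose. Ep300 (0.26 ± 0.064) and Hdac1 (0.22 ± 0.069) rose too, and Tbl1xr1 (-0.22 ± 0.066), Nlk (-0.23 ± 0.070) and Tbl1x (-0.18 ± 0.067) fell in the authors' deposited table. Tle3, Tle4 and Tle5 were not called.

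At the cell surface, 15 of 21 receptor and coreceptor genes were tested, and 1 rose, 5 fell and 9 were not called in the authors' deposited table, with a median of -0.13, or 40.0% called beside 24.7% of all tested genes. The Frizzled genes Fzd4 (-1.09 ± 0.11) and Fzd7 (-0.30 ± 0.064) and the receptor tyrosine kinase gene Ror1 (-0.66 ± 0.074) fell, and Fzd5 rose (0.60 ± 0.078) in the authors' deposited table. Fzd1 (-0.19, limma adjusted p 0.0165) and Lgr4 (-0.22, limma adjusted p 0.00952) fell too, while Fzd2, Fzd3 and Fzd8 were not called in the authors' deposited table. With widened errors 1 rise and 2 falls were called. Frizzled proteins are the targets of Znrf3. Lgr5, a receptor of R-spondins and marker of intestinal stem cells, was below the count floor. Of 37 genes listed as ligands and secreted modulators, 14 had no reads, 16 had reads below the floor and 7 were tested. Those 7 were the ligand genes Wnt2b, Wnt5a, Wnt8b, Wnt9a and Wnt10b, with Porcn and Wls, and no secreted modulator was tested. By limma 0 of the 7 were called in the authors' deposited table, beside 24.7% of all tested genes, and 0 had an unadjusted p under 0.05. With so few genes, the difference from that share was not tested.

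Of 36 other textbook targets of beta-catenin, 22 were tested, and 3 rose, 11 fell and 8 were not called in the authors' deposited table, with a median of -0.17. Called were 63.6%, beside 24.7% of all tested genes (11.3% higher and 13.4% lower), and the difference was not tested. Myc (-1.30 ± 0.065), Sox9 (-0.87 ± 0.061), Id2 (-1.90 ± 0.15), an inhibitor of differentiation, and Rgmb (-0.81 ± 0.071), a BMP coreceptor, had the smallest p-values and all fell in the authors' deposited table. Ccnd1, which encodes cyclin D1, fell by 0.16 ± 0.059 on the log2 scale (adjusted p 0.0472), from 437 to 391 CPM, in the authors' deposited table. The 3 that rose were Nedd9, Dact1 and Tnfrsf12a, named after their values were seen. The list is a mixture of tissues. Whether the changes in this list or in the members came through beta-catenin or through other inputs was not tested. No test compared this list with the members.

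**Figure D5:**
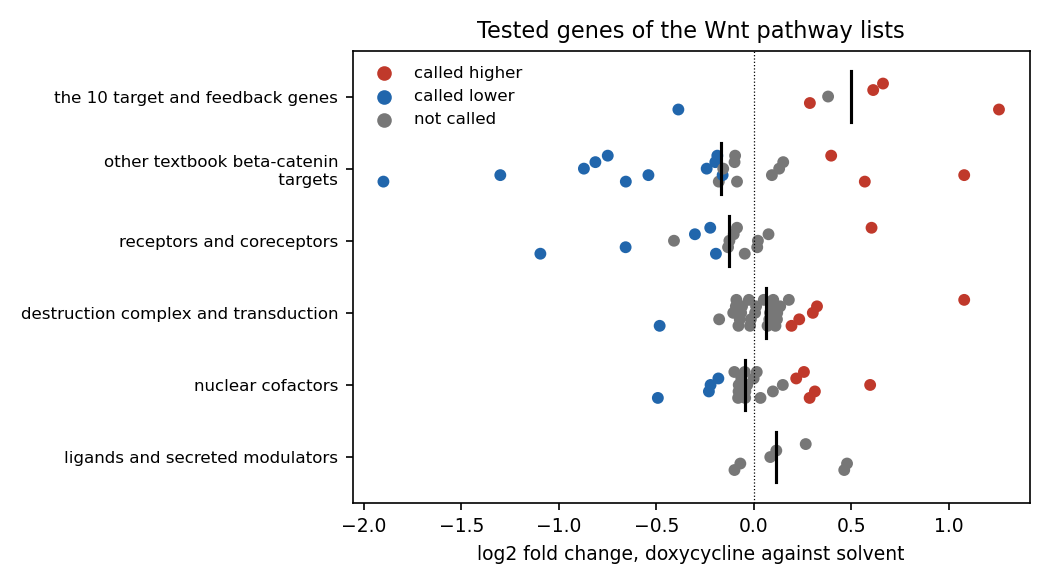
Log2 fold change of each tested gene of the 10 target and feedback genes and of the 5 pathway lists in the authors' deposited table, with red for called higher, blue for called lower and grey for not called; black bars are medians. The members have the highest median (0.50) and the other textbook targets the lowest (-0.17).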

How the data were processed

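Nuclear RNA from 4 libraries was sequenced, 2 per group, grouped by sample titles. Per the submitters' processing notes, the build was mm10 and the tools included limma, edgeR, HOMER 4.10, STAR 2.7.1a, Picard and SAMtools 1.10; their roles are not stated. The table the authors deposited is limma output, per the file headers. For every RefSeq transcript the authors' deposited table has log2 values (the fold change and the mean expression), the t score of the test, the p-value with and without adjustment, and other columns with exon length and position. The deposited log-odds score was left out.

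The scale was worked out from the values. The 14067 lowest rows are whole multiples of the lowest (100%, tolerance 0.01) in the product over 4 libraries, as counts in steps of 0.5 with 0.5 added, or whole counts with 1 added, would give; the first was used. Rows without reads all stand at -0.21 on the log2 fold scale, which reflects effective libraries 1.16-fold larger in the doxycycline group. The p-values correspond to 44446 degrees of freedom, so the spread was pooled over transcripts. Group levels are the mean log2 CPM minus or plus 0.5 of the log2 fold change, an approximation for balanced groups. For Krt19 with solvent it gives 0.0105 CPM, below the 0.0118 CPM of a transcript without reads. Levels of rows with few reads are therefore rough.

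The 10 members, the lists, the motifs, the tests and the alternatives were chosen with earlier results of these data known. Named genes were Cdx2, all members, up to 4 called genes of each list with the smallest p, and Ctnnb1, Apc, Axin1, Gsk3b, Lgr5, Myc and Ccnd1, plus the 3 tested genes nearest to Axin2 in fold change. The markers, Pygo1, Sox17, Nedd9, Tnfrsf12a, Gm15401, Wnt7a and the 7 tested genes of the ligand list were named outside this rule. So were Csnk1a1, Csnk1d, Csnk1g2, Csnk1g3, Ep300, Hdac1, Nlk, Tbl1x, Tbl1xr1, Tle3, Tle4, Tle5, Fzd1, Fzd2, Fzd3, Fzd8 and Lgr4. All but the markers (Krt19 excepted) were named after their values were seen. Intervals at 95% assume normal errors. Scripts ran in Python 3.11.15 with pandas 2.3.3, NumPy 2.4.6, SciPy 1.17.1 and Matplotlib 3.10.9. Only the standard error, the adjustment of p-values and the robust SD were checked on simulated data. The count scale, the lists, the motif search and the exon overlaps were not.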

Additional observations from a re-analysis of the deposited data

How the results depend on the processing

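The counts of members called higher (4) and lower (1) were the same under a floor of 50 counts, no floor, the longest transcript of each gene, adjustment over tested genes only, and centring on the median of ribosomal protein genes (-0.040) or of tested genes (-0.0011), and with 1 count added per library, an alternative chosen after seeing the data. With standard errors widened 2.08-fold they were 2 and 0. Single members kept direction and side of the threshold in 21 of 24 alternatives, and in the other 3 (Lef1, Tcf7l1 and Znrf3, all with widened errors) kept direction and lost the call. With widened errors the lists had 0 rises and 0 falls (destruction complex and transduction), 0 and 1 (nuclear cofactors), 1 and 2 (receptors and coreceptors) and 1 and 7 (other targets). Without a floor, 1 ligand gene, Wnt7a, was called lower. Over all tested genes, 1393 were called higher and 1654 lower (45.7% higher) as deposited, and 1575 and 1817 (46.4%) with p-values re-adjusted over tested genes. Centring on ribosomal protein genes, also re-adjusted, gave 2083 and 1475 (58.5%). No paired analysis was possible because the table holds no value per library, and leaving out replicates was not run for the same reason. Depth limits Tcf7, Rnf43, Nkd1, Nkd2 and Sp5.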

Other observations

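Wnt7a, which encodes a Wnt ligand, was below the floor of 10 counts per library and was therefore not tested, but was lower with doxycycline in the authors' deposited table (limma, adjusted p 4.81e-04). Its mean level fits between 3.5 and 19.5 counts over the 4 libraries together, so no fold change is given.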
